A study of Homo sapiens with 7 samples.

Results

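The 10 human genes described here encode secreted immune signals: the CXC chemokines CXCL1, CXCL2, CXCL3, CXCL5, CXCL6 and CXCL8, the CC chemokine CCL20, and the cytokines IL6, IL18 and LIF. They were taken by name, with earlier results of these data known, from the 20163 protein-coding genes of GENCODE 44 on hg19, and every deposited interval over each gene and 10 kb on either side was collected. PIXUL-ChIP-seq was done in HCT116, a human colorectal carcinoma cell line, grown at about 200000 cells per well of a 96-well plate and sheared in the well for 6 min in 100 μl by the PIXUL ultrasound instrument. No treatment is given for these cells. The series holds 7 libraries, 1 for each of H3K4me1, H3K4me3, H3K9Ac, H3K36me3, H3K27me3, H3K27Ac and CTCF, and peak lists of 6 of them were used, H3K27Ac being not analysed here. With 1 library per mark there were no replicates, so no difference below carries a test or a replicate error. Peak lists do not show how deeply each library was sequenced.

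CXCL1, CXCL2, CXCL3, CXCL5, CXCL6 and CXCL8 attract neutrophils through the receptor CXCR2, and some of them also through CXCR1. CCL20 attracts lymphocytes and dendritic cells that carry CCR6. IL6 and LIF signal through receptors that share the chain IL6ST (gp130) and pass the signal to JAK kinases and STAT3, whereas IL18 is made as an inactive precursor that caspase-1 cleaves. Many of these genes are textbook targets of NF-kB, which intestinal epithelial cells activate on contact with bacteria or inflammatory cytokines. H3K4me3 and H3K9Ac lie at promoters in use, H3K4me1 at enhancers and on the flanks of promoters, H3K36me3 along transcribed gene bodies, and H3K27me3 over genes silenced by Polycomb, while CTCF is a DNA-binding protein of insulators and chromatin loops.

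The 6 CXCL genes lie in a single cluster on chromosome 4, and their promoters share the recognition letters of NF-kB. The sequences below are shown because 3 of these promoters carried H3K4me3 in HCT116 and the other 3 did not. Each runs 5′ to 3′ on the strand of its gene from 150 to 51 bases upstream of the transcription start site (TSS) in hg19, and capitals mark the NF-kB letters and, in CXCL8, also an AP-1 match.
CXCL1 (chr4:74734960-74735059, plus strand): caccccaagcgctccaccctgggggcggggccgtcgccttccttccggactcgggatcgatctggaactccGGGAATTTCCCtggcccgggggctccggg
CXCL2 (chr4:74964963-74965062, minus strand): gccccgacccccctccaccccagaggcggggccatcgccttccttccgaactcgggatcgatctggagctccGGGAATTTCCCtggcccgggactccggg
CXCL3 (chr4:74904457-74904556, minus strand): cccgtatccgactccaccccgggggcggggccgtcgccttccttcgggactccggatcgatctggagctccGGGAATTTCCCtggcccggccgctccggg
CXCL5 (chr4:74864445-74864544, minus strand): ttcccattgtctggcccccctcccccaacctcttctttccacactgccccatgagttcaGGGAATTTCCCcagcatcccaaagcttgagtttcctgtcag
CXCL6 (chr4:74702245-74702344, plus strand): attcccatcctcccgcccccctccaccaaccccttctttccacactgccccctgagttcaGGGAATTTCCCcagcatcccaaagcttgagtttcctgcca
CXCL8 (chr4:74606136-74606235, plus strand): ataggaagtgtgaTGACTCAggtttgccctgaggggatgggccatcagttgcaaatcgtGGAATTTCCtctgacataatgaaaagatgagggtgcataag

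In CXCL1, CXCL2, CXCL3, CXCL5 and CXCL6 the same 11 bases GGGAATTTCCC were found, which read as the NF-kB consensus on both strands. They began 79, 78, 79, 91 and 90 bases upstream of the TSS. CXCL8 held the 9 letters GGAATTTCC, 91 bases upstream, and not the full consensus. These 9 letters were present in the window from 250 bases before to 50 bases after the TSS in 6 of the 10 genes and in 0.372% of all 20163 coding promoters of this length, searched on both strands. They lie inside the 11 bases above. Among promoters with an H3K4me3 peak 0.352% held them, and among promoters without one 0.401%. By identity over the whole window, shared letters included, CXCL1, CXCL2 and CXCL3 were closest to each other, as were CXCL5 and CXCL6. Over these 300 bases CXCL1 and CXCL3 were 82.5% identical and CXCL1 and CXCL2 71.9%, CXCL5 and CXCL6 were 83.1% identical, and CXCL1 and CXCL5 55.3%. CXCL8 was the most distant, at 45.2 to 48.0% from the other 5.

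The 10 genes had 44 deposited intervals, of which 24 passed the limits that the study's Methods set and 20 did not. These limits are a q-value below 1e-03 with a fold enrichment above 2 for H3K4me1 and H3K27me3, and a q-value below 1e-10 with a fold enrichment above 5 for the others. Fold enrichment is the linear ratio of ChIP signal to background that the peak caller gave to the whole interval. All 11 H3K4me1 intervals passed, with 5 of 7 for H3K4me3, 4 of 10 for H3K9Ac and 4 of 9 for CTCF. None of the 6 H3K36me3 intervals and not the single H3K27me3 interval passed. LIF had 12 intervals, IL18 9, CXCL2 6, CXCL1, CXCL3 and CCL20 4 each, IL6 3 and CXCL8 2. CXCL5 and CXCL6 had 0 of any mark, as did 4.78% of all coding genes.

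At the TSS, defined as 1 kb on either side of the start of the canonical transcript, H3K4me1 passed in 6 of the 10 genes, against 49.1% of all coding genes. H3K4me3 passed in 4 (59.1% of all genes) and H3K9Ac in 4 (58.5%). CTCF passed in 2 of the 10 (13.6%). H3K36me3 and H3K27me3 passed in none of them, where they passed at 0.298% and 1.22% of all coding genes. Deposited intervals, passing or not, lay within 1 kb of the TSS in 6 genes for H3K4me1 (61.2%), 5 for H3K4me3 (61.6%), 6 for H3K9Ac (64.3%), 1 for H3K36me3 (6.49%), 0 for H3K27me3 (9.6%) and 3 for CTCF (29.5%). CXCL5, CXCL6, CCL20 and IL6 had no passing peak of any mark at the TSS, as had 33.9% of all coding genes. Over the gene and 10 kb, a deposited interval of H3K4me1 was present for 7 genes (81.3% of all genes), of H3K4me3 for 5 (72.9%), of H3K9Ac for 7 (79.1%), of H3K36me3 for 2 (65.9%), of H3K27me3 for 1 (30%) and of CTCF for 6 (78.9%). Past the limits, these numbers were 7 for H3K4me1 (71.9%), 5 for H3K4me3 (69.1%), 4 for H3K9Ac (68.3%), 0 for H3K36me3 (0.789%), 0 for H3K27me3 (3.94%) and 4 for CTCF (62.4%). This window grows with the length of the gene, which was 1916 to 20844 bp for the 10 genes, and the shares over all genes were not matched for length. A fold value of cells in bulk cannot tell a mark on few cells from a weaker mark on all of them.

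**Figure D1:**
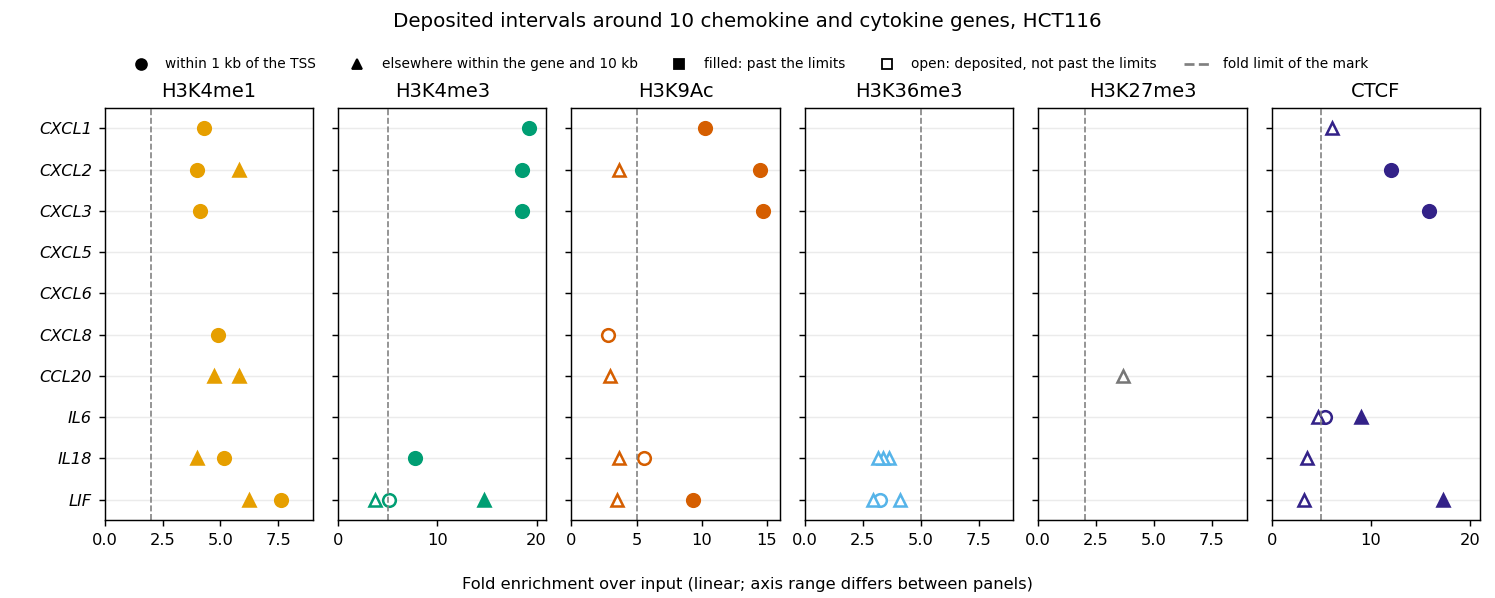
Fold enrichment over input (x axis, linear, range set per panel) of every deposited interval around the 10 genes (rows), 1 panel per mark. Circles lie within 1 kb of the TSS, triangles elsewhere, filled symbols passed the limits, open ones did not, and the dashed line is the fold limit; CXCL1, CXCL2 and CXCL3 sit together at 18.5 to 19.3 for H3K4me3, and the rows of CXCL5 and CXCL6 are empty.

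CXCL1, CXCL2 and CXCL3, which encode the closely related GRO chemokines, had H3K4me3, H3K9Ac and H3K4me1 at their TSSs, with H3K4me3 at nearly the same level. CXCL1 (chr4:74735110-74737025, plus strand) had an H3K4me3 peak of 19.3-fold from −969 to 610 bp of its TSS, over exons 1 to 3. Its H3K9Ac peak of 10.2-fold and its H3K4me1 peak of 4.30-fold covered the same stretch. CXCL2 (chr4:74962757-74964913, minus strand) had H3K4me3 at 18.5-fold, H3K9Ac at 14.5-fold and H3K4me1 at 3.98-fold. CXCL3 (chr4:74902306-74904524, minus strand) had H3K4me3 at 18.5-fold, H3K9Ac at 14.7-fold and H3K4me1 at 4.11-fold. The 3 genes were thus close together for H3K4me3 and H3K4me1, and CXCL1 was the lowest for H3K9Ac.

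Against the TSS peaks of all coding genes, H3K4me3 and H3K4me1 of this trio lay below the median in height and width. The median H3K4me3 TSS peak had 22.4-fold enrichment and a width of 2003 bp over 10456 peaks, so that CXCL1, CXCL2 and CXCL3 fell at the 35th, 31.3th and 31.5th percentile by fold. Their widths of 1580, 1230 and 1574 bp fell at the 23.8th, 8.35th and 23.5th percentile. For H3K4me1 they were at the 32.9th, 15.8th and 23.3th percentile by fold and at the 42.8th, 35.3th and 34.4th by width. For H3K9Ac, CXCL2 and CXCL3 were at the 64.5th and 66.8th percentile by fold and CXCL1 at the 23.9th. Their H3K9Ac widths of 1849 bp at CXCL1, 1404 bp at CXCL2 and 1646 bp at CXCL3 were at the 11.8th, 3.38th and 6.93th percentile, against a median of 3007 bp. The coding genes whose TSS levels were nearest over the same marks were ZBTB8A for CXCL1, RPP25L for CXCL2 and RRAGA for CXCL3, at Euclidean distances of 0.022, 0.17 and 0.11 in log2 fold. These 3 genes had 19.2, 19.6 and 19.1-fold H3K4me3.

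CXCL1, CXCL2 and CXCL3 differed in CTCF at the TSS. CXCL3 had a CTCF peak of 15.9-fold from −281 to 451 bp of the TSS, and CXCL2 one of 12.02-fold from −220 to 605 bp. CXCL1 had none at its TSS, and its nearest deposited CTCF interval, of 6.13-fold, lay 4548 bp upstream and did not pass. Of the coding genes with an H3K4me3 peak at the TSS, 19.3% also had a CTCF peak there. The combination of H3K4me1, H3K4me3, H3K9Ac and CTCF at CXCL2 and CXCL3, with no other mark, was found at 9.07% of coding genes. The same combination without CTCF, as at CXCL1, was found at 33.5%. The core sequence of CTCF, of 12 letters, was searched on both strands in each interval. Neither the CXCL2 nor the CXCL3 peak held an exact match, the nearest having 2 mismatches, and 10.9% of the 2512 CTCF peaks at coding TSSs held one. The CXCL2 marks also covered the start of a long non-coding RNA on the other strand, ENSG00000289241, and ChIP reads do not tell which of the 2 starts a peak belongs to.

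Because these genes are related in sequence, the 11 TSS peaks of CXCL1, CXCL2 and CXCL3 were aligned to the rest of hg19. Their best other placement was a gene of the same trio, at 91.2 to 92.8% identity over 41.7 to 88.4% of the peak. Of the 26 member sequences searched, TSS peaks and gene bodies, 0 had a copy at 95% identity or more over at least 50% of the length.

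CXCL8, CXCL5 and CXCL6 shared the NF-kB letters with this trio but not its H3K4me3. CXCL8 (interleukin-8, chr4:74606236-74609433, plus strand) had an H3K4me1 peak of 4.88-fold from −376 to 829 bp, directly over its TSS, exon 1 and intron 1. An H3K9Ac interval of 2.80-fold lay over the same place and did not pass. H3K4me3 had 0 intervals within 10 kb, and the nearest, of 4.53-fold, was 119980 bp upstream. H3K4me1 alone at the TSS was found at 3.21% of coding genes. By fold the CXCL8 peak was at the 56.8th percentile of H3K4me1 TSS peaks, and by its width of 1206 bp at the 23.4th. Around CXCL5 (chr4:74861359-74864394, minus strand) the nearest H3K4me3 peak was that of CXCL3, 39274 bp away. Around CXCL6 (chr4:74702357-74714781, plus strand) it was that of CXCL1, 31746 bp away. Since depth is not known, the empty windows mean that no enrichment was called, not that the marks were absent.

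**Figure D2:**
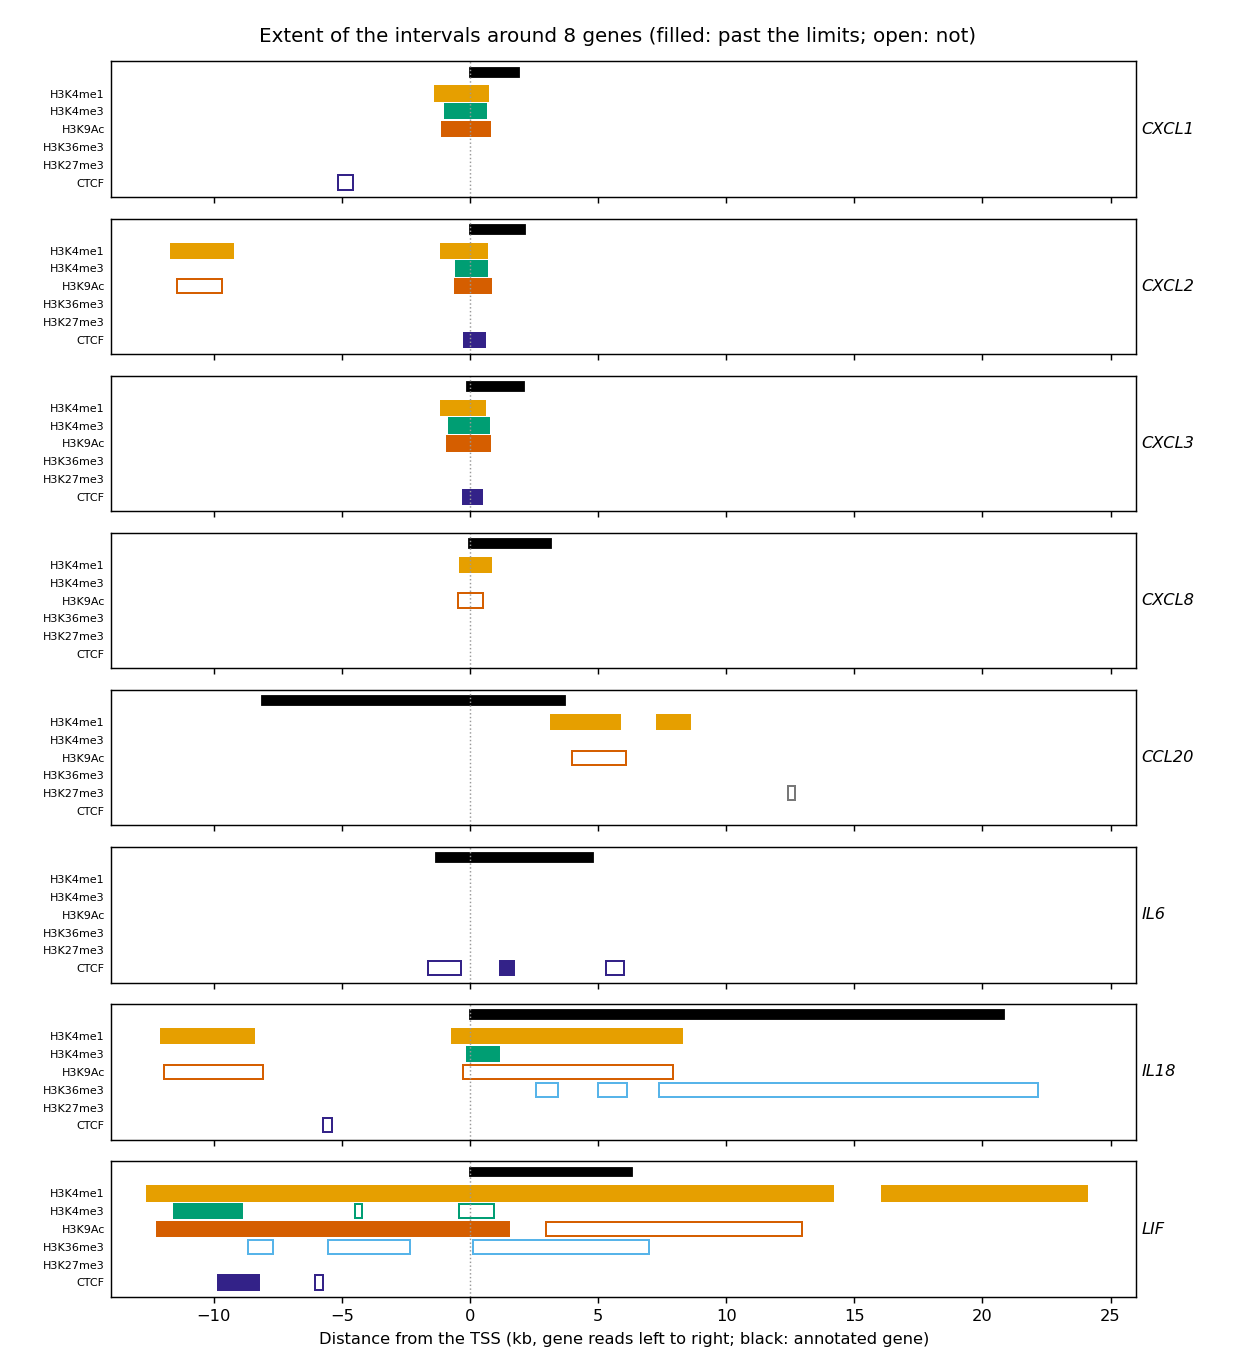
Intervals of each mark (coloured bars, filled where they passed the limits) around the 8 genes that had any, with distance from the TSS in kb on the x axis and the annotated gene in black. CXCL1, CXCL2 and CXCL3 carry short stacked peaks over the start, CXCL8 has H3K4me1 without H3K4me3, CCL20 is marked at and beyond its 3′ end and not at its start, and the H3K4me1 interval of LIF spans 26738 bp.

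Most of the length of the cluster lay outside the intervals, but no share of the whole genome was computed to set beside it. From 10 kb before CXCL8 to 10 kb after CXCL2 the region chr4:74596236-74974913 measures 378678 bp, of which H3K4me1 intervals covered 2.62%, H3K9Ac 1.63%, H3K4me3 1.16% and CTCF 0.855%. H3K36me3 and H3K27me3 had 0 intervals in it. Of the 20 intervals, 13 lay within 1 kb of a coding TSS, every time that of CXCL1, CXCL2, CXCL3 or CXCL8. The platelet chemokine genes PF4, PF4V1 and PPBP, which lie between them, had none.

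The 7 other intervals lay between genes and measured 518 to 2408 bp. An H3K4me1 peak of 5.81-fold lay from −11655 to −9248 bp of the CXCL2 TSS. An H3K9Ac interval of 3.62-fold overlapped 72.6% of it and did not pass. A second H3K4me1 peak, of 4.98-fold, lay 315.6 kb from the CXCL8 TSS, next to the pseudogene PPBPP2 and between CXCL3 and CXCL2. Another interval, of 3.46-fold, lay 144.6 kb from CXCL8 and did not pass. CTCF peaks of 7.68 and 6.08-fold lay 182.7 and 224.3 kb from CXCL8, in the stretch between CXCL1 and PF4. The 2 H3K4me1 peaks that passed were higher by fold than the H3K4me1 peaks on the TSSs of CXCL1, CXCL2 and CXCL3, as the plot of the cluster shows.

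**Figure D3:**
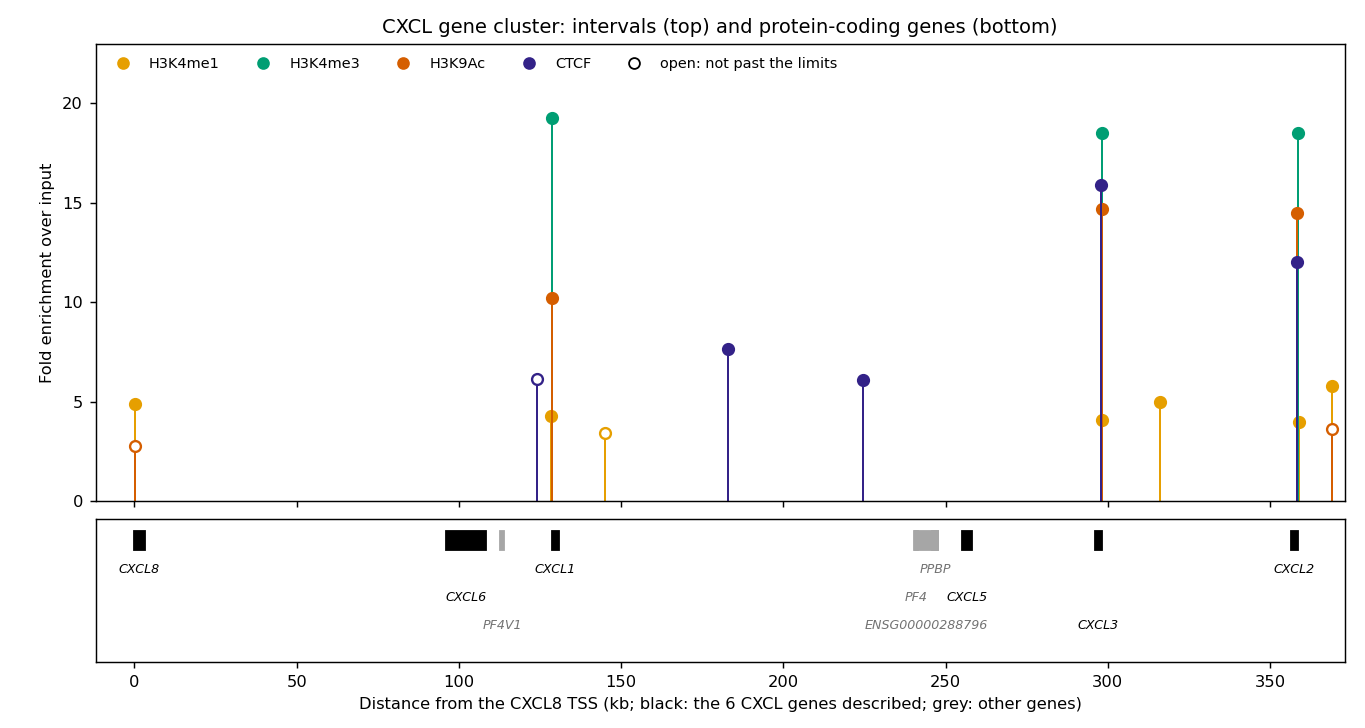
Fold enrichment over input (y axis) of the 20 intervals in the CXCL cluster against distance from the CXCL8 TSS in kb, with the protein-coding genes underneath. Stacked H3K4me3, H3K9Ac and H3K4me1 points stand at CXCL1, CXCL3 and CXCL2, with CTCF at the last 2, and no point stands over CXCL6, CXCL5, PF4, PF4V1 or PPBP.

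CCL20, the ligand of CCR6, carried its marks at and beyond its 3′ end and had no interval at its start. The canonical TSS is at 228678558 on the plus strand of chromosome 2, in a gene annotated from 228670455 to 228682280. The stretch from 150 to 51 bases upstream of it is shown because it holds the NF-kB consensus on the minus strand, in capitals, 79 bases upstream, although no interval lay there.
CCL20 (chr2:228678408-228678507, plus strand): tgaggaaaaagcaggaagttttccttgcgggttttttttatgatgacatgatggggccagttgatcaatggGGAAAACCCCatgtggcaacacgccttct

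An H3K4me1 peak of 5.81-fold ran from 3168 to 5854 bp downstream of the CCL20 TSS, over intron 3, exon 4 and its 3′ untranslated region and on past the end of the gene. A second, of 4.74-fold, ran from 7307 to 8577 bp. An H3K9Ac interval of 2.93-fold overlapped 69.3% of the first peak and did not pass, and nothing of H3K9Ac lay over the second. The only H3K27me3 interval of the 10 genes lay here, from 12404 to 12697 bp, with 3.67-fold enrichment, and did not pass its q-value limit. The nearest H3K4me3 peak was 340060 bp upstream.

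Of the 4 H3K4me1 intervals near the members that lay over 1 kb from any coding TSS, upstream of CXCL2, downstream of CCL20 and downstream of LIF, 3 overlapped a deposited H3K9Ac interval. Among all 23140 such H3K4me1 peaks 70.9% did, and 15.7% overlapped an H3K9Ac peak past the limits. None of the 4 had H3K4me3, but the share of all such peaks with H3K4me3 was not computed, so this count has no background.

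IL6, the cytokine that starts the acute-phase response, had CTCF and nothing else. The gene lies at chr7:22765503-22771621 on the plus strand. The promoter is shown with its NF-kB consensus, 73 bases upstream of the TSS, in capitals.
IL6 (chr7:22766669-22766768, plus strand): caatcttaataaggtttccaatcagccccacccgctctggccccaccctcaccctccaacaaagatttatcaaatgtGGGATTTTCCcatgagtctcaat
A CTCF peak of 9.01-fold lay inside the gene, from 1190 to 1730 bp of the TSS, over intron 2, exon 3 and intron 3. It held the only exact match to the CTCF core among the 9 CTCF intervals of the 10 genes. This match is shown on the minus strand of hg19, where it reads as the core, in capitals.
CTCF core in IL6 (chr7:22768225-22768284, minus strand): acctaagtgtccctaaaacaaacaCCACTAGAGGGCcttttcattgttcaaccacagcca
An exact core was found in 22.4% of the 24536 CTCF peaks that passed. The intervals before and after this peak, at 5.38-fold and 4.69-fold, did not pass, and the first also overlapped the annotated genes STEAP1B and IL6-AS1. The nearest H3K4me3, H3K9Ac and H3K36me3 intervals were 93691, 92702 and 82925 bp downstream of the IL6 TSS.

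The NF-kB consensus, of 10 letters, was present in 7 of the 10 promoters: CXCL1, CXCL2, CXCL3, CXCL5, CXCL6, CCL20 and IL6. It was present in 6.53% of all coding promoters, in 6.97% of those with an H3K4me3 peak and in 5.89% of those without one. Of these 7 genes, CXCL1, CXCL2 and CXCL3 had H3K4me3 at the TSS, where 59.1% of all coding genes had it. IL18 and LIF had neither form of the letters and had intervals of 5 marks each. The AP-1 letters TGANTCA were found in CXCL8 only (5.42% of all promoters), 137 bases upstream. The C/EBP letters TTNNGNAAT were found in IL6 (7.63%), and the STAT letters TTCNNNGAA in CXCL5, CXCL6 and LIF (6.48%), where in CXCL5 and CXCL6 they overlap the NF-kB letters. A TATAAA was found in CXCL8, CCL20 and LIF (9.80%), 31, 29 and 29 bases upstream of the TSS.

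IL18, a cytokine of the IL-1 family that epithelial cells store as a precursor, had a broad H3K4me1 domain with a low H3K4me3 peak inside it. The gene lies at chr11:112013976-112034819 on the minus strand. Its H3K4me1 peak of 5.15-fold measured 8976 bp and ran from −692 to 8283 bp, over exon 1 and into intron 1. By width it was at the 95.7th percentile of 8809 H3K4me1 TSS peaks. The H3K4me3 peak, from −120 to 1143 bp, had 7.79-fold enrichment, which put it at the 1.75th percentile of H3K4me3 TSS peaks. H3K9Ac covered 91.3% of the H3K4me1 domain at 5.59-fold and missed its q-value limit, with a −log10 q-value of 9.12 against 10. The combination of H3K4me1 and H3K4me3 with no other mark past the limits was found at 0.724% of coding genes, and for IL18 it turned on that limit.

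IL18 and LIF were the only 2 of the 10 genes with H3K36me3 intervals. In IL18 an interval of 14798 bp at 3.65-fold ran from 7376 to 22173 bp, over exons 2 to 6 and past the end of the gene. Smaller intervals of 3.38 and 3.17-fold lay in intron 1. None passed the limits, and of all 40010 deposited H3K36me3 intervals 0.225% did. A coding gene annotated across the same place, ENSG00000255292, cannot be told apart from IL18 by these intervals. Upstream of IL18, an H3K4me1 peak of 3.97-fold from −12062 to −8414 bp lay within 1 kb of the start of another coding gene, BCO2.

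LIF had the widest domain of the 10 genes, and its H3K4me3 peak lay upstream of the start. LIF (chr22:30636442-30642748, minus strand) is a cytokine of the IL-6 family known for holding stem cells undifferentiated. Its H3K4me1 peak of 7.64-fold measured 26738 bp, from −12585 to 14152 bp, and so covered the whole gene of 6307 bp. By width it ranked 77 of the 32292 H3K4me1 peaks that passed, and by fold it was at the 95.1th percentile of TSS peaks. A second H3K4me1 peak, of 8011 bp and 6.21-fold, followed from 16080 to 24090 bp. The H3K9Ac peak of 9.30-fold measured 13726 bp, from −12193 to 1532 bp, and ranked 228 by width of 12720. It lay over the upstream part of the H3K4me1 domain, and its fold was at the 17th percentile of TSS peaks. This fold belongs to the whole interval, which also spans the H3K4me3 and CTCF peaks upstream, and not to the TSS alone. An H3K9Ac interval of 9965 bp and 3.49-fold, from 2981 to 12945 bp, lay over the downstream part and did not pass. Together these 2 intervals overlapped 88.6% of the H3K4me1 domain.

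At the LIF TSS itself the H3K4me3 interval of 5.09-fold, from −444 to 928 bp, had a −log10 q-value of 6.16 and did not pass. The H3K4me3 peak that passed, of 14.7-fold and 2640 bp, lay from −11549 to −8910 bp. It overlapped a CTCF peak of 17.3-fold, from −9829 to −8235 bp. The annotation places 0 transcript starts within 1 kb of this H3K4me3 peak. Of all 12749 H3K4me3 peaks that passed, 5.38% had no annotated start within 1 kb. All 3 H3K36me3 intervals of 2.93 to 4.10-fold, lay over the gene and upstream, and none passed. The LIF domain also covered the antisense genes LIF-AS1 and LIF-AS2. H3K4me1 and H3K9Ac past the limits at the TSS, with no other mark past them there, was found at 0.709% of coding genes.

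**Figure D4:**
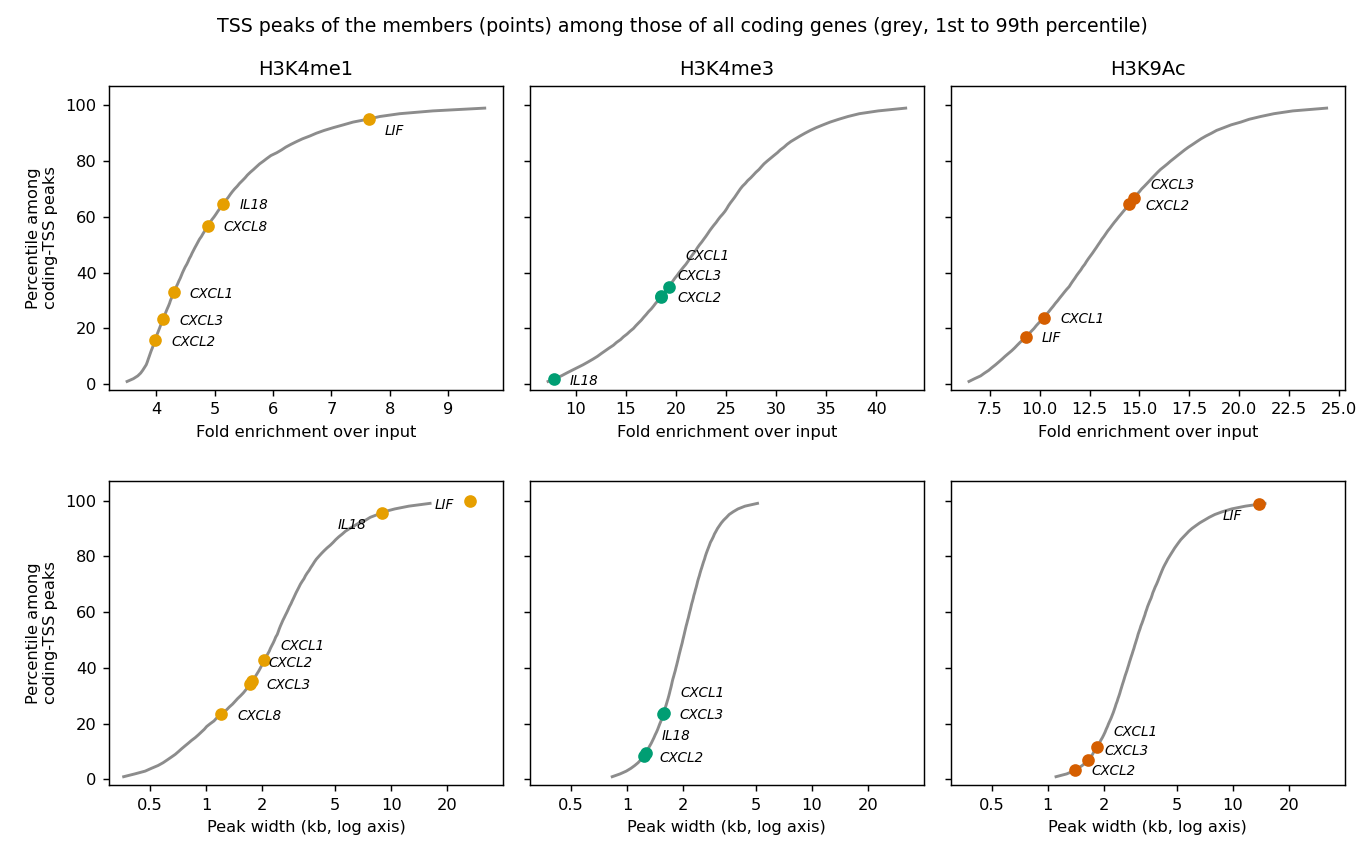
TSS peaks of the members (points) on the distribution of the TSS peaks of all coding genes (grey line, 1st to 99th percentile), by fold enrichment over input (top, linear) and by width in kb (bottom, log axis). The H3K4me3 point of IL18 sits at the 1.75th percentile by fold, and LIF is at the 99.7th and 98.7th percentile by width for H3K4me1 and H3K9Ac, while CXCL1, CXCL2 and CXCL3 are at the 11.8th, 3.38th and 6.93th by width for H3K9Ac.

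The genes upstream and downstream of these signals were read at their TSSs by the same limits. Of 15 NF-kB regulators, 15 had H3K4me3, 14 H3K9Ac and 12 H3K4me1, where 59.1%, 58.5% and 49.1% of all coding genes did. The same shares are the background of the lists that follow. The highest H3K4me3 folds were at NFKBIA (33.0), the inhibitor IkB-alpha, the subunit gene NFKB1 (32.7), TNIP1 (32.2) and the subunit gene RELA (30.7). Of 6 JAK and STAT genes, 6 had H3K4me3 and H3K9Ac, with SOCS3 (36.7), an inhibitor of this pathway, JAK1 (32.4), STAT3 (27.8) and JAK2 (23.1) in that order of H3K4me3 fold.

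Of 10 genes for receptors and binding proteins of the 10 signals, 4 had H3K4me3: LIFR (23.2), IL6ST (17.7), IL6R (12.4) and IL18R1 (8.51). CXCR1, CXCR2 and CCR6, the receptors of the chemokines, had no TSS peak of any mark. Of 6 genes that process IL18 or release it, GSDMD, which forms the exit pore, had H3K4me3 (22.7), and CASP1, which cleaves the precursor, had no TSS peak.

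Most other chemokine genes had no TSS peak of any mark, while the other cytokine genes were mixed. Of 21 other chemokine genes, 1 had H3K4me3 at the TSS, CXCL16 (25.2), a chemokine with a membrane anchor. Of 7 further genes of the chromosome 4 chemokine region, 0 had a TSS peak of any mark. Of 23 other cytokine genes, 10 had H3K4me1, 8 H3K4me3 and 7 H3K9Ac. By H3K4me3 fold CLCF1 (31.7), CSF1 (24.1), TGFB1 (24.03) and IL12A (16.8) were the highest of them. The cytokine genes CSF2, CSF3 and TNFSF15 and the chemokine gene CCL26 (3.27-fold) had H3K4me1 without H3K4me3, as CXCL8 did, and were picked out after their values were seen. So had NLRP1 (4.97-fold), of the IL18 processing genes, and the leukocyte marker CD68, the latter with H3K9Ac. H3K4me1 alone at the TSS was found at 3.21% of coding genes. No gene of these lists had an H3K27me3 peak past the limits at its TSS, where only 1.22% of all coding genes had one. Of all 55270 deposited H3K27me3 intervals 2.81% passed.

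The labelled cell type was read from marker genes. Of 7 epithelial markers 5 had H3K4me3 at the TSS, against 59.1% of all coding genes: CDX2 (31.6), EPCAM (30.4), CDH1 (25.1), KRT18 (24.4) and KRT8 (21.8), while KRT20 and VIL1 had no peak. Of 7 leukocyte markers 0 had H3K4me3, and CD68 had H3K9Ac (14.7) and H3K4me1 (4.20). Of 6 fibroblast markers COL1A1 had H3K4me3 (9.21), and the others had no H3K4me3 peak.

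**Figure D5:**
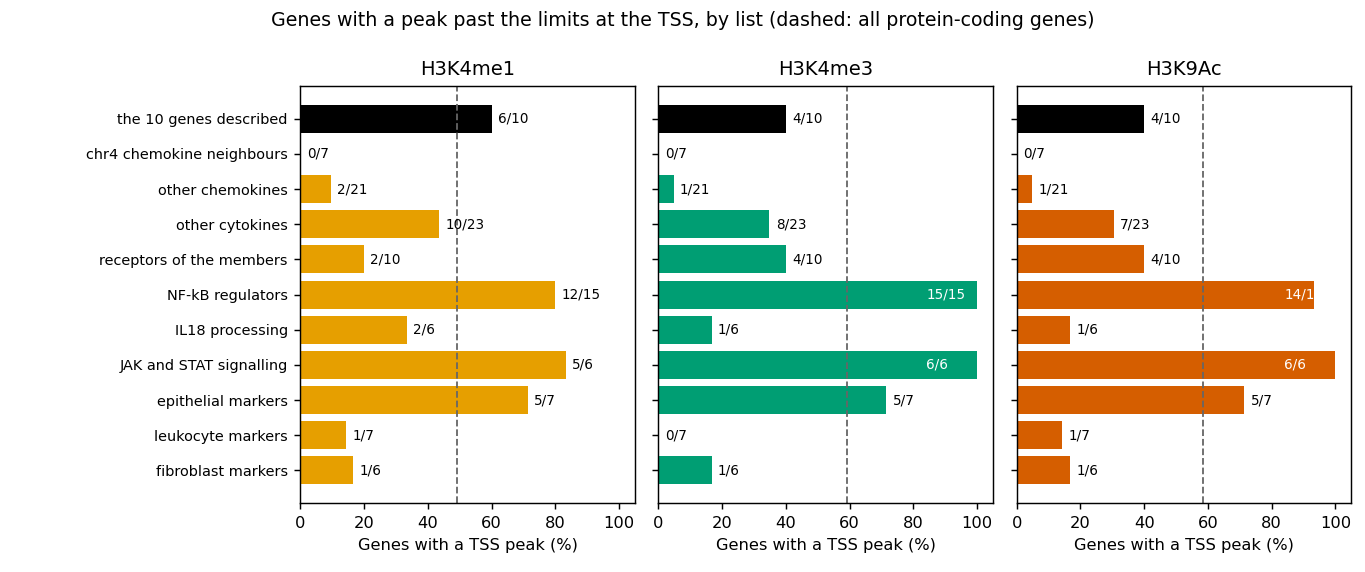
Share of the genes of each list (rows, counts printed) with a peak past the limits within 1 kb of the TSS, for H3K4me1, H3K4me3 and H3K9Ac, with all protein-coding genes as the dashed line. The NF-kB regulators and JAK and STAT genes reach 15 of 15 and 6 of 6 for H3K4me3, the 10 genes described 4 of 10 and the other chemokines 1 of 21.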

How the data were processed

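PIXUL-ChIP-seq peak lists of HCT116 cells were used, 1 per mark. Reads had been aligned by the authors to hg19 (BWA 0.7.12), and broad peaks were called in each library by MACS2 with a cutoff of 0.1. The submitters' processing notes name MACS 1.4.2. For each interval the authors deposited a fold enrichment, a linear ratio over input, and a −log10 p-value and −log10 q-value. The Methods give their looser limits for H3K4me1, H3K27me3 and H3K27Ac and the stricter ones for all other histone marks. CTCF is not named and was given the stricter ones.

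Intervals were joined to GENCODE 44 genes on hg19 at an overlap of at least 1 bp. For the 10 members and 19881 genes in all with a canonical transcript its TSS was used, otherwise the 5′ end of the gene. Percentiles are among distinct peaks at coding TSSs. Promoter sequences come from hg19, and 8 were identical to the RefSeq entry (GRCh38). IL18 and LIF had no entry. Identity is from global alignment (biopython 1.88), and copies were searched with minimap2 2.31. Overlap and motif code was tested on simulated data and checked against bedtools 2.31.1. Python 3.11.15 was used with pandas 2.3.3.

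The members and lists were chosen with earlier results of these data known. Named genes were all members, the genes of the CXCL cluster, up to 4 of each list with the highest H3K4me3 fold, and the gene nearest in profile. KRT8 was added after its value was seen, as were CASP1, NLRP1, CD68, COL1A1 and the receptors without peaks. Alternatives were other limits, windows, overlaps, TSSs and 1 mismatch in the NF-kB letters. No test was possible with 1 library per mark.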

Additional observations from a re-analysis of the deposited data

How the results depend on the processing

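Of 87 recomputed values over 21 results, 78 stayed within 1.5 times the reported value and 9 did not. Some of the 78 could not change. H3K36me3 and H3K27me3 had 0 deposited intervals in the CXCL cluster, so narrower choices there also gave 0. At the TSS, the raised H3K4me1 fold limit lay below the lowest fold of all coding-TSS peaks, 3.08. A fall from 6 to 4 genes with CTCF over the gene and 10 kb also counted as within 1.5 times. With only peaks past the limits, and also with the fold limit multiplied by 1.5, the number of genes with an interval over the gene and 10 kb fell from 7 to 4 for H3K9Ac, from 2 to 0 for H3K36me3 and from 1 to 0 for H3K27me3. With 5 kb on each side the H3K27me3 number was 0. At the TSS, swapping the looser and stricter limits left 1 gene with H3K4me1, LIF, in place of 6, and all deposited intervals gave 1 gene with H3K36me3, again LIF, in place of 0. CXCL1, CXCL2, CXCL3 and IL18 kept H3K4me3 at the TSS under each TSS alternative. Only the raised fold limit and the narrower TSS window could have removed it, as the other settings can only add peaks for this mark. With 1 mismatch the NF-kB consensus was found in 9 of the 10 promoters and in 54.2% of all coding promoters.

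Sequencing depth is not known from the peak lists, and values near a limit, such as H3K9Ac at IL18 and H3K4me3 at LIF, have no second library to set them against. No paired analysis was possible because there was only a single library for every mark.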
